A study of Rattus norvegicus with 12 samples.

Results

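Collagens outside the cartilage network were taken as every gene symbol made of Col, a number, a and a number, without the 7 genes of the cartilage collagens II, IX, X and XI (Col2a1, Col9a1, Col9a2, Col9a3, Col10a1, Col11a1 and Col11a2). The pattern matched 44 of the 30045 symbols that were counted, which left 37 genes, and the rule reads symbols only. A gene was tested if it had 60 or more counts in at least 2 of the 12 libraries, and 32 of the 37 genes met this limit. These were all 8 fibrillar genes (Col1a1, Col1a2, Col3a1, Col5a1, Col5a2, Col5a3, Col24a1 and Col27a1), 6 of 8 basement membrane genes (Col4a1, Col4a2, Col4a5, Col4a6, Col15a1 and Col18a1), both anchoring genes (Col7a1 and Col17a1) and 16 of 19 other genes (Col6a1, Col6a2, Col6a3, Col6a5, Col6a6, Col8a1, Col8a2, Col12a1, Col13a1, Col14a1, Col16a1, Col20a1, Col22a1, Col25a1, Col26a1 and Col28a1). The 5 genes below the limit were Col4a3, Col4a4, Col6a4, Col19a1 and Col23a1. Col6a5 reached 60 counts in Control replicates 1 and 3 only, so its control libraries alone admitted it to the test. The limit is on raw counts, and these libraries held 21953446 and 20069564 counts, so depth entered as well as level. Col7a1 reached 60 counts under each drug but in no control library, so its treated libraries alone admitted it to the test. Likewise, Col28a1 reached 60 counts in 3 libraries, all with LiCl, and these alone admitted it.

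The RNA came from metatarsals, the long bones of the hind paw, of Sprague Dawley rat fetuses at embryonic day 19. The bones were cultured for 72 h in 4 conditions with 3 libraries each: control, dexamethasone (1 µM, a synthetic glucocorticoid), LiCl (10 mM, lithium chloride, an inhibitor of the kinase GSK3 and thereby an activator of Wnt/β-catenin signalling), and dexamethasone + LiCl at the same doses. All 4 conditions shared a serum-free medium with bovine serum albumin, β-glycerophosphate and ascorbic acid, the cofactor of collagen hydroxylation. Control and LiCl cultures also received ethanol in the volume in which dexamethasone was added to the others. Each library was made from a pool of about 20 ± 2 bones. The labels name 3 biological replicates per condition but do not say which libraries share a rat. The study states that 3 rats were used and that each pool came from 1 rat, so libraries of different conditions share a rat. Its methods describe 3 consecutive experiments, each with 20 bones per condition. The main fit pairs libraries neither by rat nor by experiment, and p-values measure the spread between these pools. The study asked what lithium does to bones exposed to a glucocorticoid, and here each drug was compared with control, the combination with each drug, and the combination with control.

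Collagens are triple helices of chains that repeat glycine at every turn of the helix, and the chains a cell makes decide which assembly forms. Fibrillar collagens such as collagen I form the cables of bone, tendon and perichondrium. Collagen IV chains join into the sheet of the basement membrane, on which epithelium, endothelium, muscle and nerve rest, and collagens XV and XVIII sit in or beside that sheet. Collagen VII forms anchoring fibrils that tie the sheet to the fibrils below it, and collagen XVII is a transmembrane protein of the hemidesmosome. Collagen VI forms beaded filaments close to the cell surface and is a main part of the pericellular matrix of chondrocytes. Other collagens decorate fibrils (XII, XIV, XVI, XX, XXII) or stay in the cell membrane (XIII, XXIII, XXV).

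Libraries held 9055581 to 21953446 counts. Levels are given as CPM, the counts of a gene relative to its library's total after scaling by the trimmed mean of M-values, and were not compared between genes since no transcript lengths were used. The 37 genes together took 3.87% to 4.48% of all counts in control libraries, 3.55% to 4.18% under dexamethasone, 3.53% to 3.81% under LiCl and 3.55% to 3.93% under the combination. All 7 chondrocyte markers were detected in every condition, and the cartilage collagens left out took 7.15% to 10.8% of counts, lowest in Dexamethasone replicate 2. Whole bones were lysed, so fewer cells of a type and less RNA per cell cannot be told apart. In the sentences that follow, rose and fell are used for genes past the test (adjusted p under 0.05, edgeR quasi-likelihood test with Benjamini-Hochberg adjustment over 12602 genes), and fold changes are on the log2 scale ± their approximate standard error (SE).

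Genes of this set moved in both directions. Of the 32 tested genes, 26 were past the test in at least 1 of the 5 pairwise comparisons. The 5 past all of them were Col6a2, Col24a1 and Col26a1, with Col7a1 and Col6a5, whose differences from control depend on how the count limit admitted them. The 6 past none were Col3a1, Col5a1, Col4a1, Col14a1, Col22a1 and Col28a1. The shares of all tested genes past at least 1 or all 5 comparisons were not taken, so these counts have no background. The combination against control alone called 2848 of all 12602 tested genes. The collagen VI genes Col6a1, Col6a2 and Col6a3 rose with each drug, and Col7a1 was higher with each drug. Col24a1, Col26a1, Col13a1, Col16a1 and Col1a2 fell with each drug. The dexamethasone calls of Col16a1 and Col1a2 were kept in only 9 and 10 of 19 alternatives. Col4a5 was the gene that moved both ways, up with dexamethasone and down when LiCl was added to it. The second of these calls was kept in only 6 of 19 alternatives.

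**Figure D1:**
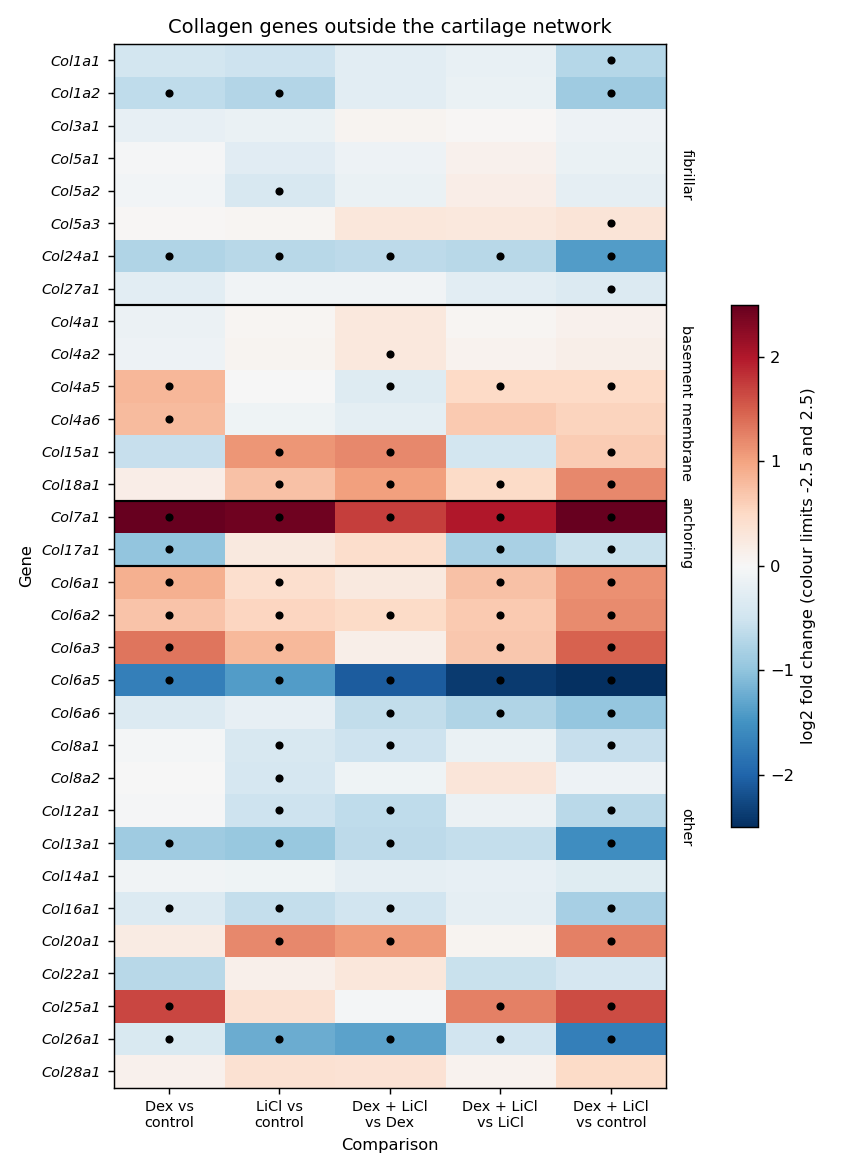
Log2 fold change of the 32 tested collagen genes (rows, by group) in the 5 pairwise comparisons (columns), in red where higher and blue where lower, with colour limits at -2.5 and 2.5. Black dots mark genes past the test, and the rows of Col7a1 and Col6a5 are the deepest red and blue. Col7a1 was tested only because treated libraries reached the count limit, and Col6a5 only because control libraries did.

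Dexamethasone against control moved 14 of the 32 genes. The 7 genes that rose, Col7a1 included, are to be read against the 5.45% of all tested genes that rose. The 7 that fell, Col6a5 included, are to be read against 5.49%. With a fold above 2 or below 0.5 as well, 4 genes passed, Col7a1 and Col6a5 included, against 2.84% of all genes. LiCl against control raised 7 genes, Col7a1 included (4.71% of all genes rose), and lowered 10, Col6a5 included (5.9% fell). The fold limit was passed by 5, Col7a1 and Col6a5 included (1.58%). Without Control replicate 1, where Col6a5 could not be tested, 11 of these genes were past the test for LiCl. The calls over all genes went from 1338 to 1005 there.

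Adding LiCl to dexamethasone raised 6 genes (3.82% of all genes rose) and lowered 9 (4.78% fell), and 6 passed the fold limit (1.36%). This total of 15 was 9 without Dexamethasone replicate 3, 8 without Dexamethasone + LiCl replicate 1 and 9 without Dexamethasone + LiCl replicate 2. The calls over all tested genes, 1084 with every library, were 587, 589 and 665 without the same libraries. Adding dexamethasone to LiCl raised 7 genes (3.79% of all genes rose) and lowered 5 (3.09% fell), with 3 past the fold limit (2.01%). The combination against control raised 10 genes, Col7a1 included (10.8% of all genes rose), and lowered 12, Col6a5 included (11.8% fell). The fold limit was passed by 11, Col7a1 and Col6a5 included (4.37%). The median log2 fold change of the 32 genes was -0.07 for dexamethasone, -0.09 for LiCl, -0.10 for LiCl added to dexamethasone, 0.05 for dexamethasone added to LiCl and -0.15 for the combination, beside medians over all tested genes between -0.0042 and 0.0085. The 5 comparisons share libraries and are not independent of each other.

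Some fibrillar collagens fell with each drug while others did not pass the test. The summed level of the 8 genes, to which Col1a1 gave 16182 of 29906 CPM in control, was 31284, 31613 and 26821 CPM in Control replicates 1, 2 and 3. It was 25840, 20071 and 26193 CPM under dexamethasone, 22461, 22551 and 24373 CPM under LiCl, and 22055, 19870 and 23189 CPM under the combination. Every treated library lay below every control library in this sum. Against control, 2 of the 8 genes fell with dexamethasone (5.49% of all tested genes fell), 3 with LiCl (5.9%) and 4 with the combination (11.8%), and 1 rose, with the combination (10.8%).

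Col1a1, the α1 chain of collagen I and the main product of osteoblasts and of perichondrial and tendon fibroblasts, had 17219, 17670 and 13657 CPM in the control libraries. It had 13115, 8651 and 13774 CPM under dexamethasone, 10921, 10658 and 12127 CPM under LiCl, and 10150, 8449 and 10910 CPM under the combination. All 3 LiCl and all 3 combination libraries lay below the lowest control library, whereas Dexamethasone replicate 3 lay above it. The combination lowered Col1a1 1.65-fold (log2 fold change -0.72 ± 0.16 SE, adjusted p = 0.00484). The log2 differences for LiCl (-0.53 ± 0.16 SE, adjusted p = 0.0505) and for dexamethasone (-0.45 ± 0.16 SE, adjusted p = 0.0947) did not pass the test. With the replicate number as a block both single drugs passed it (adjusted p = 0.0217 for LiCl and 0.0395 for dexamethasone). LiCl also passed with relative log expression scaling (adjusted p = 0.0477), with filterByExpr (adjusted p = 0.0483), in a fit of only the groups compared (adjusted p = 0.0245), and without Control replicate 3 or Dexamethasone replicate 2 or 3 (adjusted p 0.0109 to 0.0472). With DESeq2 both single drugs passed (adjusted p = 0.0081 for LiCl and 0.0298 for dexamethasone), as they did with no count filter (adjusted p = 0.00123 and 0.00493).

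Col1a2, the other chain of collagen I, had 275, 219 and 228 CPM in the control libraries, 161, 121 and 186 CPM under dexamethasone, 114, 156 and 165 CPM under LiCl, and 107, 106 and 173 CPM under the combination. No treated library reached the lowest control library. The gene fell by 0.63 on the log2 scale with dexamethasone (adjusted p = 0.048), by 0.73 with LiCl (adjusted p = 0.0225) and by 0.90 with the combination (adjusted p = 0.0033). These counts are uncertain, since the files hold a further entry named Col1a2-2 whose counts were close to those of Col1a2 (ratio 0.983 to 1.33), and Col1a1 had 59.9 to 95.9 counts for each count of Col1a2. Col1a2-2 fell with LiCl (-0.66 ± 0.17 SE, adjusted p = 0.0202) and with the combination (-0.94 ± 0.17 SE, adjusted p = 0.000847), and its log2 difference with dexamethasone was -0.51 ± 0.17 SE (adjusted p = 0.0667). The dexamethasone call of Col1a2 was lost without any 1 of the 3 control libraries, Dexamethasone replicate 1 or 2, LiCl replicate 2 or 3, or Dexamethasone + LiCl replicate 1 (adjusted p 0.0522 to 0.189), and with DESeq2 (adjusted p = 0.084). Its LiCl call was lost without Control replicate 1 (adjusted p = 0.0771) or LiCl replicate 1 (adjusted p = 0.104).

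Col24a1, a minor fibrillar collagen of developing bone, had 94.1, 70.0 and 77.0 CPM in the control libraries. It had 56.5, 45.2 and 42.5 CPM under dexamethasone, 54.9, 48.2 and 46.0 CPM under LiCl, and 35.3, 27.8 and 29.1 CPM under the combination. The single-drug libraries lay between those of control and those of the combination, with no overlap with either. The gene fell with dexamethasone (-0.75 ± 0.13 SE, adjusted p = 0.00111), with LiCl (-0.70 ± 0.13 SE, adjusted p = 0.00225) and 2.63-fold with the combination (-1.40 ± 0.13 SE, adjusted p = 2.02e-06). It also fell when LiCl was added to dexamethasone (-0.65 ± 0.14 SE, adjusted p = 0.00802) and when dexamethasone was added to LiCl (-0.70 ± 0.13 SE, adjusted p = 0.0035).

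Col3a1, which makes the collagen III of loose connective tissue and vessel walls, had 6419, 6613 and 5050 CPM in the control libraries. It had 5500, 4849 and 5358 CPM under dexamethasone, 5259, 5359 and 5449 CPM under LiCl, and 5721, 5266 and 5510 CPM under the combination. The conditions overlapped in every comparison, and log2 differences ranged from -0.20 ± 0.11 SE for dexamethasone to 0.07 ± 0.11 SE for LiCl added to dexamethasone (adjusted p 0.265 and 0.761).

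Collagen V nucleates collagen I fibrils. Of its genes, Col5a2 fell with LiCl (-0.39 ± 0.08 SE, adjusted p = 0.00536), and for LiCl Col5a1 had a log2 difference of -0.28 ± 0.09 SE (adjusted p = 0.0751, 0.0325 with the replicate block, 0.012 with DESeq2 and 0.0353 without Dexamethasone replicate 2). For the combination Col5a2 stood at -0.22 ± 0.08 SE (adjusted p = 0.0554, 0.0346 with the replicate block, 0.00311 with DESeq2, 0.0427 without Control replicate 3 and 0.0469 without Dexamethasone replicate 2). Col5a3 rose with the combination (0.32 ± 0.11 SE, adjusted p = 0.0405), and Col27a1, a fibrillar collagen of growth plate cartilage, fell with it (-0.35 ± 0.12 SE, adjusted p = 0.0442). The Col5a3 call was lost without Control replicate 2 or 3, LiCl replicate 3, or Dexamethasone + LiCl replicate 1 or 3 (adjusted p 0.0512 to 0.177). The Col27a1 call was lost without Control replicate 3, Dexamethasone replicate 1 or 3, any LiCl library, or Dexamethasone + LiCl replicate 1 or 2 (adjusted p 0.054 to 0.21). Both calls were also lost in a fit of only the groups compared (adjusted p = 0.0655 and 0.11) and after thinning to the smallest library (adjusted p = 0.0601 and 0.0559).

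Marker genes of the cells that make collagen I are given beside these results. Of all tested genes, 5.49% fell with dexamethasone, 5.9% with LiCl and 11.8% with the combination, and 5.45%, 4.71% and 10.8% rose in that order. The 9 osteoblast markers summed to 1336 to 1536 CPM in control, 853 to 1664 CPM under dexamethasone, 915 to 1194 CPM under LiCl and 842 to 1392 CPM under the combination, and against control 2, 1 and 3 of 8 tested members fell, in that order, while 0 rose. The 9 tendon and fibroblast markers summed to 2503 to 2618 CPM in control, 1979 to 2256 CPM under dexamethasone, 2138 to 2170 CPM under LiCl and 1956 to 2083 CPM under the combination, and 6, 3 and 4 of 9 fell while 1 rose each time (Pdgfra with dexamethasone, Dpt with LiCl and with the combination). None of these 18 markers was at 0 in a whole condition, and their part in the collagen I results was not tested.

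**Figure D2:**
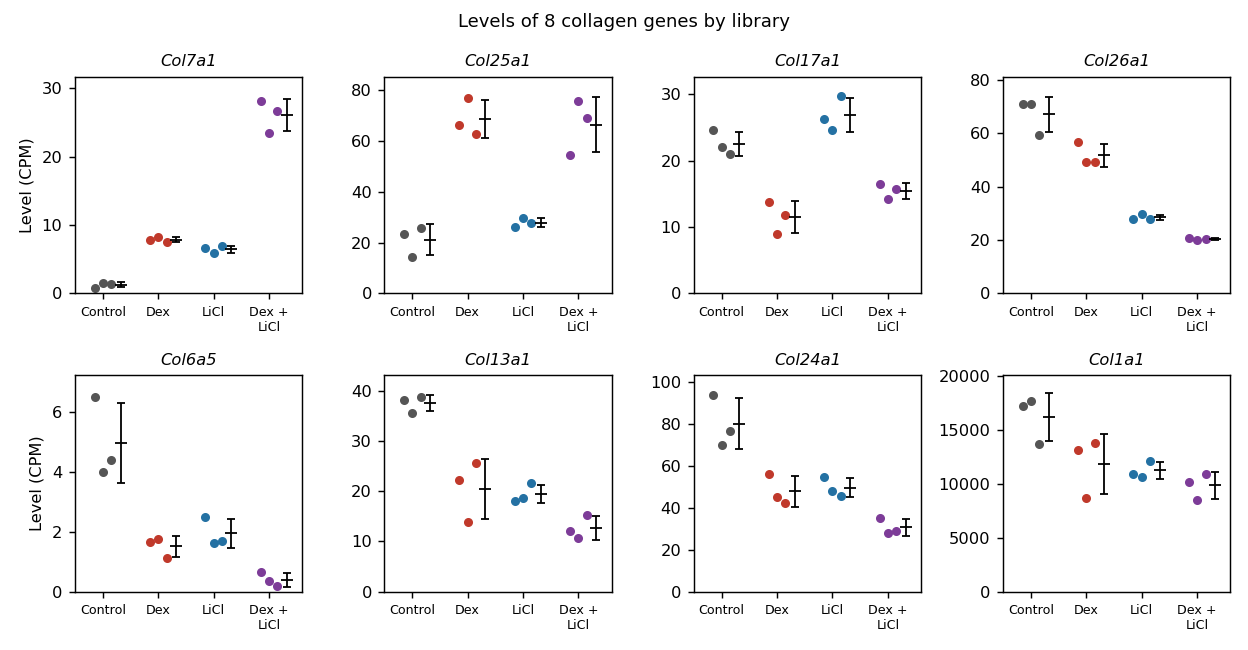
Levels of 8 collagen genes in CPM (linear axes from 0) in each of the 12 libraries (points, by condition), with the mean and SD of the 3 libraries as black bars. Col7a1 is highest under the combination, Col25a1 is high wherever dexamethasone was given, Col17a1 is low there, and Col26a1, Col6a5, Col13a1 and Col24a1 are lowest under the combination.

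The basement membrane genes did not move as a block. The main collagen IV chains differed from control by log2 values between -0.15 and 0.15, the α5 and α6 chains rose with dexamethasone, and collagens XV and XVIII rose with LiCl. The summed level of the group was 1034 ± 78.8 CPM (SD, n = 3) in control, 992 ± 62.2 CPM under dexamethasone, 1128 ± 54.7 CPM under LiCl and 1240 ± 38.6 CPM under the combination. Against control, 2 of 6 tested genes rose with dexamethasone (5.45% of all tested genes rose), 2 with LiCl (4.71%) and 3 with the combination (10.8%), and 0 fell. Adding LiCl to dexamethasone raised 3 (3.82%) and lowered 1 (4.78%).

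Col4a1 and Col4a2 encode the chains of the common basement membrane collagen IV and start back to back. In RefSeq annotation of the rat assembly GRCr8, which is not the build behind the counts, their starts are 77 bases apart on opposite strands of chromosome 16. The window from 250 bases before to 50 after the start of Col4a1 (chr16:84885347-84885646, + strand) is shown because its capitals, 176 bases, also lie in the window of Col4a2.
Col4a1: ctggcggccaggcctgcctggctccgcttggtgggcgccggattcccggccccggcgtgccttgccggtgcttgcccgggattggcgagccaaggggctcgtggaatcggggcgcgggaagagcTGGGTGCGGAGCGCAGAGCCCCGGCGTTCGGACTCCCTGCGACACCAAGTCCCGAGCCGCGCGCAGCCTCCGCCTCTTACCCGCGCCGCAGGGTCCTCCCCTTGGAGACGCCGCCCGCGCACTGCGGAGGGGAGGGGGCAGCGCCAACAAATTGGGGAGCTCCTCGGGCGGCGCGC

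The levels of this pair kept close to a fixed ratio. Col4a1 had 526, 521 and 449 CPM in the control libraries, 497, 436 and 418 CPM under dexamethasone, 490, 513 and 555 CPM under LiCl, and 563, 525 and 531 CPM under the combination. Col4a2 had 437, 431 and 384 CPM, then 405, 366 and 382 CPM, 412, 438 and 452 CPM, and 461, 476 and 454 CPM in the same order. Both genes were lowest in dexamethasone libraries or in Control replicate 3, and their counts stood at 1.10 to 1.23 of Col4a1 for each of Col4a2 in all 12 libraries. When LiCl was added to dexamethasone, Col4a2 rose by 0.27 ± 0.08 SE on the log2 scale (adjusted p = 0.0461) and Col4a1 differed by 0.26 ± 0.09 SE (adjusted p = 0.0953, and 0.0416 with DESeq2). The Col4a2 call was lost without any 1 library other than Control replicate 2 or 3 (adjusted p 0.0505 to 0.139), with no count filter (adjusted p = 0.0725) and in a fit of only the groups compared (adjusted p = 0.0596).

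Col4a5 and Col4a6, the chains of the collagen IV found in some specialised basement membranes, also lie head to head, with starts 1415 bases apart on the X chromosome. Their windows (chrX:109907109-109907408, + strand, and chrX:109905895-109906194, - strand, GRCr8) are shown because both genes rose with dexamethasone. The capitals mark the GC box GGGCGG, read as CCGCCC where it lies on the other strand.
Col4a5: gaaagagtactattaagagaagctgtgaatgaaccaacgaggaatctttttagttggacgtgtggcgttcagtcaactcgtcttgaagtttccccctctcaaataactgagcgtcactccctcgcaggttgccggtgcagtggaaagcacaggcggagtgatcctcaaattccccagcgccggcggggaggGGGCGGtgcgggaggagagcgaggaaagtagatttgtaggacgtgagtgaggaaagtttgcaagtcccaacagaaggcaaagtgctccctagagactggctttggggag
Col4a6: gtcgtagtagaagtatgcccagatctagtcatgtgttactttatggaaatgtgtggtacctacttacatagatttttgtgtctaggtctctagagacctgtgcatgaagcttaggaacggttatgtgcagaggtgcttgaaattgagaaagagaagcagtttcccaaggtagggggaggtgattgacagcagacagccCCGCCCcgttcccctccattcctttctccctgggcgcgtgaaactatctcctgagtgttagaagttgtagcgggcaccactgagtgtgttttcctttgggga

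Col4a5 had 35.0, 31.6 and 32.8 CPM in the control libraries, 54.1, 57.2 and 65.2 CPM under dexamethasone, 36.2, 33.7 and 29.3 CPM under LiCl, and 44.6, 50.2 and 45.7 CPM under the combination. The dexamethasone libraries were the highest, control and LiCl libraries overlapped, and the combination lay between them. The gene rose 1.77-fold with dexamethasone (0.82 ± 0.10 SE, adjusted p = 3.42e-05), and the combination stood above control (0.50 ± 0.10 SE, adjusted p = 0.00183) and above LiCl (0.50 ± 0.10 SE, adjusted p = 0.00392). LiCl alone left a log2 difference of -0.01 ± 0.10 SE. Added to dexamethasone, LiCl lowered Col4a5 (-0.33 ± 0.10 SE, adjusted p = 0.0492), a call kept in 6 of 19 alternatives and lost without any 1 library other than Control replicate 2 and LiCl replicate 3 (adjusted p 0.0516 to 0.188), with filterByExpr (adjusted p = 0.056), with no filter (adjusted p = 0.0563) and in a fit of only the groups compared (adjusted p = 0.0642).

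Col4a6 had 5.00, 2.51 and 4.23 CPM in the control libraries, 6.21, 5.96 and 8.97 CPM under dexamethasone, 3.29, 3.99 and 3.87 CPM under LiCl, and 6.56, 5.02 and 6.19 CPM under the combination. Every library with dexamethasone lay above every library without it. It rose with dexamethasone (0.79 ± 0.24 SE, adjusted p = 0.0407), and for the combination the log2 difference from control was 0.55 ± 0.23 SE (adjusted p = 0.106). The dexamethasone call was lost without Control replicate 2 or 3, Dexamethasone replicate 1 or 3, LiCl replicate 2 or 3, or Dexamethasone + LiCl replicate 1 or 3 (adjusted p 0.0511 to 0.156), after thinning (adjusted p = 0.0688) and in a fit of only the groups compared (adjusted p = 0.116).

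The remaining collagen IV chains, Col4a3 and Col4a4, which form a network with Col4a5 in kidney and lung, were too low for the count limit. Col4a3 had 0.495, 0.279 and 0.605 CPM in the control libraries, 1.55, 2.01 and 2.47 CPM under dexamethasone, 0.286, 0.472 and 0.726 CPM under LiCl, and 1.42, 2.01 and 2.39 CPM under the combination, from 3 to 41 counts per library. The libraries with dexamethasone did not overlap with those without it. With no count filter, over 23569 genes, Col4a3 rose with dexamethasone (2.01 ± 0.42 SE, adjusted p = 0.000271) and when dexamethasone was added to LiCl (1.93 ± 0.41 SE, adjusted p = 0.000413). Col4a4, with 0 to 12 counts per library, also rose with dexamethasone in that fit (2.60 ± 0.75 SE, adjusted p = 0.0147), a fitted value that depends on the prior count since 1 control library was at 0. Their starts are 413 bases apart on opposite strands.

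Col18a1, whose C-terminal fragment is endostatin, had 86.7, 69.7 and 70.4 CPM in the control libraries, 94.9, 85.7 and 75.4 CPM under dexamethasone, 126, 117 and 132 CPM under LiCl, and 195, 173 and 153 CPM under the combination. Control and dexamethasone libraries overlapped, all LiCl libraries lay above both, and all combination libraries lay above those. It rose with LiCl (0.72 ± 0.11 SE, adjusted p = 0.000764), when LiCl was added to dexamethasone (1.02 ± 0.11 SE, adjusted p = 4.92e-05) and 2.29-fold with the combination (1.19 ± 0.11 SE, adjusted p = 1.78e-06). It also rose when dexamethasone was added to LiCl (0.47 ± 0.11 SE, adjusted p = 0.0144), a call lost without LiCl replicate 2 (adjusted p = 0.0717) or Dexamethasone + LiCl replicate 1 (adjusted p = 0.0904).

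Col15a1, the close relative of Col18a1, had 5.27, 6.96 and 4.69 CPM in the control libraries, 4.24, 3.36 and 3.59 CPM under dexamethasone, 11.2, 10.4 and 13.9 CPM under LiCl, and 7.65, 7.85 and 9.93 CPM under the combination. The 4 conditions did not overlap, with dexamethasone lowest and LiCl highest. It rose with LiCl (1.09 ± 0.18 SE, adjusted p = 0.00127), when LiCl was added to dexamethasone (1.2 ± 0.21 SE, adjusted p = 0.00198) and with the combination (0.63 ± 0.19 SE, adjusted p = 0.0248). The last call was lost without Control replicate 1 or 3 or Dexamethasone + LiCl replicate 3 (adjusted p 0.0746 to 0.125), after thinning (adjusted p = 0.0601) and in a fit of only the groups compared (adjusted p = 0.0542). Dexamethasone alone left a log2 difference of -0.57 ± 0.21 SE (adjusted p = 0.0979).

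Endothelial cells are a known source of basement membrane collagens. The 15 endothelial markers summed to 325 to 366 CPM in control, 185 to 195 CPM under dexamethasone, 287 to 319 CPM under LiCl and 196 to 198 CPM under the combination. Against control, 10 of 13 tested markers fell with dexamethasone (5.49% of all tested genes fell) and 1 rose (5.45%). With LiCl 1 fell (5.9%), and with the combination 8 fell (11.8%). Robo4, at 0 in all libraries with dexamethasone, had at most 0.135 CPM in any library, and the part of these cells in the basement membrane results was not tested.

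**Figure D3:**
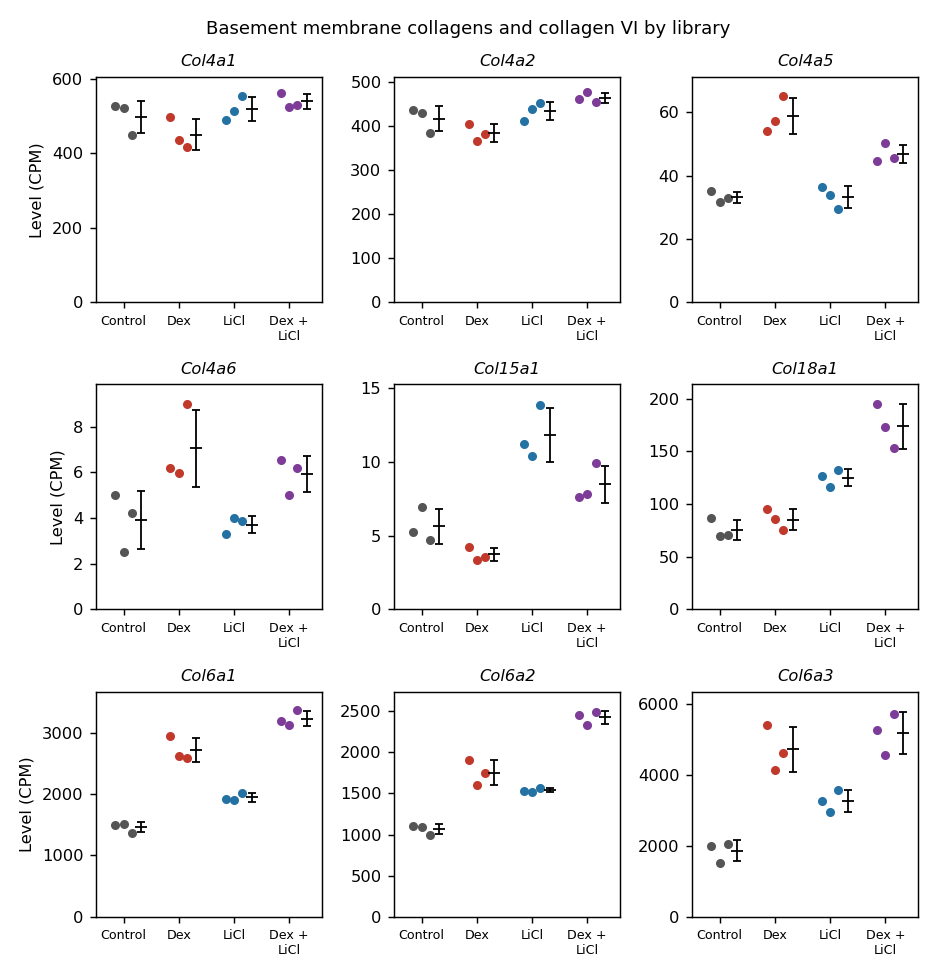
Levels in CPM (linear axes from 0) of 6 basement membrane collagen genes and the 3 main collagen VI genes in each library (points, by condition), with the mean and SD of 3 libraries as black bars. Col4a1 and Col4a2 run in parallel, Col4a5 and Col4a6 are high with dexamethasone, Col15a1 and Col18a1 with LiCl, and the collagen VI genes are lowest in control.

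Col7a1, the chain of the anchoring fibril, showed the largest change of the 32 genes in each of the comparisons with control. It had 18, 16 and 28 counts in the control libraries, 75, 98 and 67 under dexamethasone, 92, 113 and 143 under LiCl, and 257, 257 and 457 under the combination. As levels these were 0.810, 1.49 and 1.41 CPM in control, 7.76, 8.23 and 7.51 CPM under dexamethasone, 6.57, 5.93 and 6.93 CPM under LiCl, and 28.1, 23.4 and 26.7 CPM under the combination. The 4 conditions did not overlap, with control lowest, each drug above it, and the combination far above both drugs.

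Col7a1 stood above control 6.57-fold with dexamethasone (2.72 ± 0.20 SE), 5.42-fold with LiCl (2.44 ± 0.20 SE) and 21.8-fold with the combination (4.45 ± 0.18 SE). These differences are given as a description with no test, since the gene was admitted by its treated libraries alone. Between the treated conditions, Col7a1 rose 3.32-fold when LiCl was added to dexamethasone (1.73 ± 0.15 SE, adjusted p = 8e-06) and 4.02-fold when dexamethasone was added to LiCl (2.01 ± 0.15 SE, adjusted p = 2.73e-07). Both of these calls were kept in all 19 alternatives.

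The start of Col7a1 (chr8:118483114-118483413, + strand, GRCr8, 250 bases before to 50 after) is shown because the gene was higher in every comparison. The capitals mark its GC box GGGCGG.
Col7a1: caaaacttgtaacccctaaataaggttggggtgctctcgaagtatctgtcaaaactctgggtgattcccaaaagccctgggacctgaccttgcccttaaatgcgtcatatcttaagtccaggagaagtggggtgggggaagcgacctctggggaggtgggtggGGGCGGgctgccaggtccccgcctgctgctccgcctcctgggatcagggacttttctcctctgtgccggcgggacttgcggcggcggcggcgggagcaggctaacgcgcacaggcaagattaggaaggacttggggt

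RefSeq windows of this kind were found for 30 of the 37 genes (33 windows, of 33469 in the table), and both strands were searched for 4 motifs. GGGCGG was found in 18 of the 33 windows, against 33.1% of all windows in the table, and CCAAT in 10, against 37.5%. The windows are not independent, since those of Col4a1 and Col4a2 share 176 bases. These shared bases hold matches of both motifs, which count in both windows. AGAACA, the hexamer repeated in glucocorticoid response elements, was found in 3 (Col5a1, Col6a4 and Col8a2), against 20.7%. ATCAAAG, the TCF/LEF motif through which β-catenin acts, was found in 0, against 3.63%. Neither of the last 2 motifs was in the windows printed here, which says only that these letters are not in those bases.

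Col17a1, the other anchoring gene, moved the opposite way under dexamethasone. It had 24.6, 22 and 21.1 CPM in the control libraries, 13.8, 8.90 and 11.9 CPM under dexamethasone, 26.3, 24.7 and 29.7 CPM under LiCl, and 16.5, 14.1 and 15.7 CPM under the combination. The conditions did not overlap, with dexamethasone lowest, the combination next, and LiCl highest. It fell with dexamethasone (-0.98 ± 0.14 SE, adjusted p = 0.000207), when dexamethasone was added to LiCl (-0.80 ± 0.13 SE, adjusted p = 0.00108) and with the combination (-0.55 ± 0.13 SE, adjusted p = 0.00804). LiCl alone left a log2 difference of 0.25 ± 0.13 SE (adjusted p = 0.223), and LiCl added to dexamethasone one of 0.43 ± 0.15 SE (adjusted p = 0.0863, 0.0392 with the replicate block and 0.0439 without Dexamethasone replicate 1).

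Collagens VII and XVII are best known from skin. The 14 epidermis markers summed to 31.5 to 38.6 CPM in control, 68.8 to 72.1 CPM under dexamethasone, 34.0 to 37.0 CPM under LiCl and 56.4 to 62.4 CPM under the combination. With dexamethasone 4 of 6 tested markers rose (Krt15, Perp, Ppl and Evpl), beside 5.45% of all tested genes. Of the keratins, Krt14 had at most 0.109 CPM and Krt5 at most 0.0839 CPM in any library, whereas Krt10 had 11.7 to 18.5 CPM and Krt15 had 2.42 to 8.29 CPM, and Dsg3 was at 0 in all 12 libraries. The 11 skeletal muscle markers summed to 42.1 to 45.3 CPM in control, 76.2 to 113 CPM under dexamethasone, 72.5 to 77.7 CPM under LiCl and 183 to 222 CPM under the combination, so that control was lowest and the combination highest here too. Against control, 4 of 7 tested muscle markers rose with dexamethasone (5.45% of all tested genes rose), 6 with LiCl (4.71%) and 7 with the combination (10.8%). Pax7, the marker of muscle stem cells, was at 0 in all 12 libraries. The part of epidermal or muscle cells in the Col7a1 and Col17a1 results was not tested.

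Among the other collagens the genes of the collagen VI heterotrimer rose together. Col6a1, Col6a2 and Col6a3 had summed levels of 4598, 4117 and 4411 CPM in the control libraries and 10237, 8352 and 8929 CPM under dexamethasone. The sums were 6688, 6375 and 7158 CPM under LiCl and 10898, 10015 and 11571 CPM under the combination. Control was lowest, LiCl next, and dexamethasone and the combination overlapped at the top.

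Col6a1, the α1 chain, had 1499, 1514 and 1363 CPM in the control libraries, 2939, 2620 and 2579 CPM under dexamethasone, 1917, 1895 and 2020 CPM under LiCl, and 3181, 3126 and 3360 CPM under the combination. The conditions did not overlap. It rose with dexamethasone (0.90 ± 0.09 SE, adjusted p = 4.64e-06), with LiCl (0.41 ± 0.09 SE, adjusted p = 0.00691), when dexamethasone was added to LiCl (0.73 ± 0.09 SE, adjusted p = 4.97e-05) and 2.21-fold with the combination (1.14 ± 0.09 SE, adjusted p = 2.01e-07). LiCl added to dexamethasone left a log2 difference of 0.25 ± 0.09 SE (adjusted p = 0.0935, and 0.0113 with DESeq2).

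Col6a2, the α2 chain, had 1105, 1091 and 994 CPM in the control libraries, 1909, 1601 and 1744 CPM under dexamethasone, 1527, 1524 and 1568 CPM under LiCl, and 2452, 2335 and 2493 CPM under the combination. These conditions did not overlap either. It rose in all 5 comparisons, from 0.47 ± 0.09 SE when LiCl was added to dexamethasone (adjusted p = 0.0034) to 1.19 ± 0.09 SE for the combination (adjusted p = 1.29e-07).

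Col6a3, the long α3 chain, had 1995, 1513 and 2054 CPM in the control libraries, 5389, 4130 and 4607 CPM under dexamethasone, 3245, 2957 and 3570 CPM under LiCl, and 5265, 4554 and 5718 CPM under the combination. Dexamethasone and combination libraries overlapped, and LiCl libraries lay between these and control. It rose 2.54-fold with dexamethasone (1.34 ± 0.14 SE, adjusted p = 7.53e-06), with LiCl (0.81 ± 0.14 SE, adjusted p = 0.00144), when dexamethasone was added to LiCl (0.67 ± 0.14 SE, adjusted p = 0.0053) and 2.79-fold with the combination (1.48 ± 0.14 SE, adjusted p = 1.69e-06). LiCl added to dexamethasone left a log2 difference of 0.14 ± 0.14 SE (adjusted p = 0.603).

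Of the further collagen VI chains, Col6a5 and Col6a6 were lowest under the combination. Col6a5, which can take the place of the α3 chain in mouse, had 144, 43 and 87 counts in the control libraries, 16, 21 and 10 under dexamethasone, 35, 31 and 35 under LiCl, and 6, 4 and 3 under the combination. In CPM these were 6.48, 3.99 and 4.38 in control, 1.66, 1.76 and 1.12 under dexamethasone, 2.5, 1.63 and 1.7 under LiCl, and 0.656, 0.365 and 0.175 under the combination. Control libraries were highest, the single drugs overlapped, and the combination was lowest. The log2 differences from control were -1.71 ± 0.30 SE with dexamethasone, -1.39 ± 0.27 SE with LiCl and -3.79 ± 0.38 SE with the combination. They are given as a description with no test, since the gene was admitted by its control libraries alone.

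Between the treated conditions, Col6a5 fell when LiCl was added to dexamethasone (-2.08 ± 0.47 SE, adjusted p = 0.0134, but 0.0842 without Dexamethasone + LiCl replicate 3) and when dexamethasone was added to LiCl (-2.40 ± 0.43 SE, adjusted p = 0.00206). It did not reach the count limit when Control replicate 1 or 3 was left out or after thinning, so it could be tested in 16 of 19 alternatives. Col6a6 fell when LiCl was added to dexamethasone (-0.62 ± 0.18 SE, adjusted p = 0.0387), when dexamethasone was added to LiCl (-0.75 ± 0.17 SE, adjusted p = 0.0121) and with the combination (-0.96 ± 0.17 SE, adjusted p = 0.000779). The first of these was lost without Dexamethasone replicate 2 or 3, any LiCl library or any combination library (adjusted p 0.0513 to 0.126) and after thinning (adjusted p = 0.0515), the second without Dexamethasone + LiCl replicate 2 (adjusted p = 0.051) or 3 (adjusted p = 0.0623). Without Control replicate 2, where Col6a6 was lowest among the controls, it also passed the test for dexamethasone (adjusted p = 0.00179) and for LiCl (adjusted p = 0.0132). Col6a4 stayed between 1 and 16 counts per library and was not past the test in the fit with no filter.

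Among the transmembrane collagens, Col25a1 and Col13a1 moved in opposite directions with dexamethasone. Col25a1, known in mouse for its part in muscle innervation, had 23.3, 14.3 and 25.8 CPM in the control libraries, 66.3, 77.1 and 62.5 CPM under dexamethasone, 25.9, 29.8 and 27.8 CPM under LiCl, and 54.6, 75.6 and 68.9 CPM under the combination. All 6 libraries with dexamethasone lay above all 6 without it, and dexamethasone and combination libraries overlapped. It rose 3.19-fold with dexamethasone (1.68 ± 0.17 SE, adjusted p = 5.66e-06), when dexamethasone was added to LiCl (1.25 ± 0.16 SE, adjusted p = 0.000114) and 3.09-fold with the combination (1.63 ± 0.17 SE, adjusted p = 4.14e-06). LiCl left log2 differences of 0.37 ± 0.17 SE alone (adjusted p = 0.171, and 0.0481 with no count filter) and -0.05 ± 0.16 SE when added to dexamethasone (adjusted p = 0.907).

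Col13a1, a collagen of cell contacts and of the neuromuscular junction, had 38.2, 35.7 and 38.7 CPM in the control libraries, 22.1, 13.9 and 25.6 CPM under dexamethasone, 18.1, 18.7 and 21.6 CPM under LiCl, and 12.1, 10.7 and 15.4 CPM under the combination. Control libraries were clear of all others, and dexamethasone overlapped with LiCl and with the combination. It fell with dexamethasone (-0.88 ± 0.17 SE, adjusted p = 0.00267), with LiCl (-0.95 ± 0.17 SE, adjusted p = 0.00185) and 2.92-fold with the combination (-1.54 ± 0.18 SE, adjusted p = 1.3e-05). It fell too when LiCl was added to dexamethasone (-0.66 ± 0.19 SE, adjusted p = 0.039), a call lost without Dexamethasone replicate 1 or 3, LiCl replicate 2, or Dexamethasone + LiCl replicate 1 or 2 (adjusted p 0.0524 to 0.173) and in a fit of only the groups compared (adjusted p = 0.0882). Dexamethasone added to LiCl left a log2 difference of -0.60 ± 0.18 SE (adjusted p = 0.0606), which passed the test with the replicate block (adjusted p = 0.00872), with DESeq2 (adjusted p = 0.0207) and with no filter (adjusted p = 0.00245). This difference also passed in a fit of only the groups compared (adjusted p = 0.0142), after thinning (adjusted p = 0.0486), and without Dexamethasone replicate 2 or 3 or Dexamethasone + LiCl replicate 3 (adjusted p 0.0089 to 0.0379). The sums and counts of the skeletal muscle markers are given with Col7a1, and their part in the results of Col25a1 and Col13a1 was not tested. Col23a1, the remaining transmembrane gene, had 0 to 4 counts per library.

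Col26a1, a secreted collagen first described in testis and ovary of mouse, had 70.9, 71.0 and 59.3 CPM in the control libraries, 56.7, 49.4 and 49.1 CPM under dexamethasone, 27.9, 29.7 and 27.8 CPM under LiCl, and 20.9, 20.1 and 20.3 CPM under the combination. The conditions did not overlap, and the 6 LiCl-treated libraries lay well below the 6 without LiCl. It fell 2.35-fold with LiCl (-1.23 ± 0.09 SE, adjusted p = 8.28e-07), 2.54-fold when LiCl was added to dexamethasone (-1.34 ± 0.10 SE, adjusted p = 1.2e-06) and 3.29-fold with the combination (-1.72 ± 0.09 SE, adjusted p = 8.72e-09). The changes with dexamethasone were smaller, -0.37 ± 0.09 SE alone (adjusted p = 0.0118) and -0.48 ± 0.10 SE when added to LiCl (adjusted p = 0.00467). The former was lost without Dexamethasone replicate 2 (adjusted p = 0.0502) and in a fit of only the groups compared (adjusted p = 0.0695).

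Of the fibril-associated collagens, Col12a1 and Col16a1 fell with LiCl while Col20a1 rose. Col12a1, abundant in perichondrium and tendon, had 3434, 2417 and 3226 CPM in the control libraries, 2969, 2445 and 3445 CPM under dexamethasone, 1959, 2086 and 2313 CPM under LiCl, and 1798, 1798 and 2129 CPM under the combination. All LiCl-treated libraries lay below all others. It fell with LiCl (-0.51 ± 0.14 SE, adjusted p = 0.0316), when LiCl was added to dexamethasone (-0.63 ± 0.14 SE, adjusted p = 0.0132) and with the combination (-0.66 ± 0.14 SE, adjusted p = 0.00333), and dexamethasone alone left a log2 difference of -0.04 ± 0.14 SE. The LiCl call was lost without Control replicate 1 or 3 or any LiCl library (adjusted p 0.0572 to 0.12), and the next without Dexamethasone replicate 3 or Dexamethasone + LiCl replicate 1 or 2 (adjusted p 0.0553 to 0.0706).

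Col16a1, which binds to fibrils of several tissues, fell with LiCl (-0.59 ± 0.10 SE, adjusted p = 0.0017), when LiCl was added to dexamethasone (-0.48 ± 0.10 SE, adjusted p = 0.0084), with the combination (-0.82 ± 0.10 SE, adjusted p = 3.13e-05) and with dexamethasone (-0.34 ± 0.10 SE, adjusted p = 0.0429). The last of these was lost without any 1 library other than Dexamethasone replicate 3 and Dexamethasone + LiCl replicates 2 and 3 (adjusted p 0.0553 to 0.156) and in a fit of only the groups compared (adjusted p = 0.15).

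Col20a1 had 9.05, 9.66 and 15.5 CPM in the control libraries, 10.5, 19.6 and 8.85 CPM under dexamethasone, 16.7, 28.3 and 33.9 CPM under LiCl, and 20.3, 36.3 and 26.2 CPM under the combination. The libraries of a condition were spread widely, and those with LiCl lay above control but LiCl replicate 1 lay within the range of dexamethasone. It rose 2.31-fold with LiCl (1.21 ± 0.30 SE, adjusted p = 0.0181), when LiCl was added to dexamethasone (1.07 ± 0.31 SE, adjusted p = 0.047) and with the combination (1.27 ± 0.30 SE, adjusted p = 0.00712). The first call was lost without Control replicate 1 or 2 or LiCl replicate 2 or 3 (adjusted p 0.0501 to 0.0966). The second was lost without Dexamethasone replicate 1 or 3, LiCl replicate 2 or 3 or any combination library (adjusted p 0.0503 to 0.177) and with DESeq2 (adjusted p = 0.0725).

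Collagen VIII forms hexagonal networks in the cornea and in vessel walls. Col8a1 fell with LiCl (-0.41 ± 0.11 SE, adjusted p = 0.0317), when LiCl was added to dexamethasone (-0.52 ± 0.12 SE, adjusted p = 0.0127) and with the combination (-0.57 ± 0.12 SE, adjusted p = 0.00211), and Col8a2 fell with LiCl (-0.42 ± 0.13 SE, adjusted p = 0.0427). The Col8a1 call for LiCl was lost without Control replicate 1 or 3 or any LiCl library (adjusted p 0.0585 to 0.134) and in a fit of only the groups compared (adjusted p = 0.0765), and its next call without Dexamethasone + LiCl replicate 1 (adjusted p = 0.0622). The Col8a2 call was lost without Control replicate 1 or 2, Dexamethasone replicate 1, any LiCl library or Dexamethasone + LiCl replicate 2 (adjusted p 0.0539 to 0.176) and in a fit of only the groups compared (adjusted p = 0.0516).

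Col14a1, Col22a1 and Col28a1 were not past the test in any comparison of the fit used throughout. The lowest log2 difference of Col14a1 and Col22a1 was -0.69 ± 0.26 SE (Col22a1, dexamethasone, adjusted p = 0.112). Their highest was 0.28 ± 0.27 SE (Col22a1, LiCl added to dexamethasone, adjusted p = 0.588). For Col28a1 the combination stood above control by 0.47 ± 0.22 SE. This value is given as a description with no test, since libraries with LiCl alone admitted the gene. With the replicate block, Col22a1, a collagen of tissue junctions such as that of muscle and tendon, passed as lower for dexamethasone (adjusted p = 6.82e-05), for dexamethasone added to LiCl (adjusted p = 0.000343) and for the combination against control (adjusted p = 0.00163). It passed in the same comparisons with no count filter (adjusted p = 0.000406, 0.0106 and 0.0426). Col22a1 had 49.5, 40.6 and 68.9 CPM in Control replicates 1, 2 and 3 and 36.3, 23.2 and 40.0 CPM in the dexamethasone libraries of the same numbers, lower in each numbered pair. Col14a1 passed for the combination against control with the block (adjusted p = 0.0068), with DESeq2 (adjusted p = 0.0282) and with no filter (adjusted p = 0.0255). It also passed there without Control replicate 2 (adjusted p = 0.0208) or Dexamethasone replicate 2 (adjusted p = 0.0394). Col19a1 had 2 to 19 counts per library and was not past the test in the fit with no filter.

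Whether the drugs together did other than the sum of their separate effects on the log2 scale was tested as their interaction. 0 of the 32 genes passed, where 1 of all 12602 tested genes did (0.00794%). At an unadjusted p under 0.05 there were 3 of the 32, Col7a1 included, beside 705 of all 12602 tested genes. These were Col7a1 (-0.71 ± 0.25 SE, adjusted p = 0.809), Col6a3 (-0.68 ± 0.19 SE, adjusted p = 0.614) and Col4a5 (-0.32 ± 0.14 SE, adjusted p = 0.838). DESeq2 gave 0 of 32 and 25 of all 12602 genes, and at an unadjusted p under 0.05 it gave 5 of 32 and 669 of all 12602. With no count filter Col6a3 passed (-0.66, adjusted p = 0.0453), where 37 of all 23569 genes did. The 21.8-fold difference of Col7a1 from control with both drugs stood below the product of its 6.57-fold and 5.42-fold differences. On the log2 scale this gap was not past the test. The interaction uses the control libraries, and Col7a1 was admitted by its treated libraries alone, so its value is read as a description only.

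**Figure D4:**
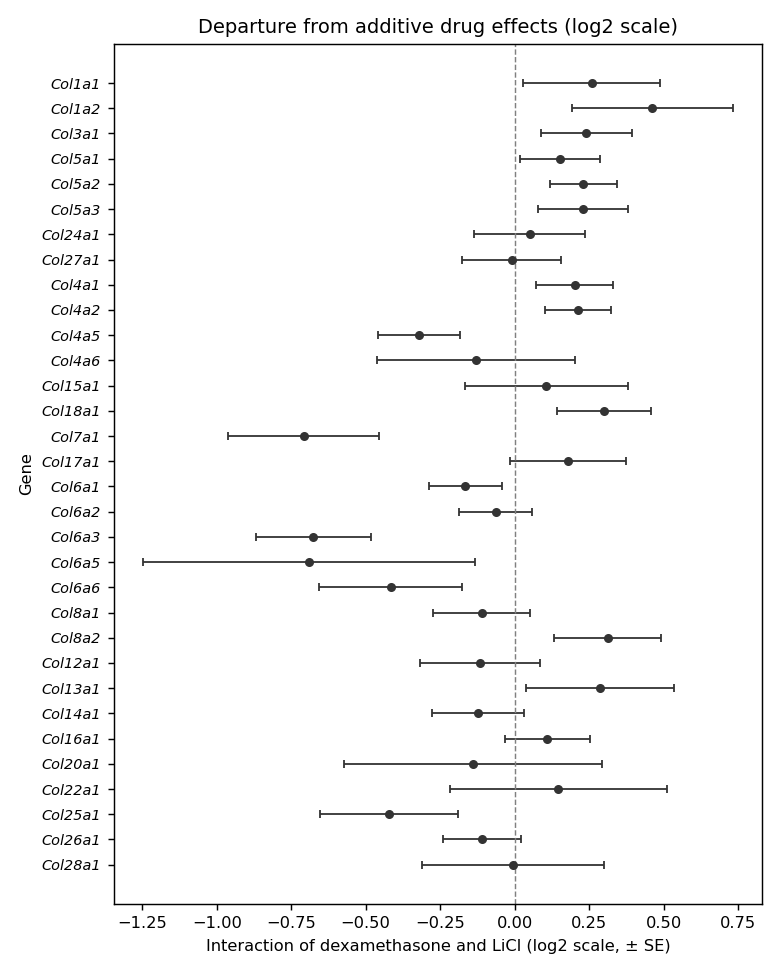
Interaction of dexamethasone and LiCl on the log2 scale for the 32 tested collagen genes (points) with the standard error (bars), where 0 (dashed line) means that the effects of both drugs add. Col7a1, Col6a5 and Col6a3 lie farthest below 0 and Col1a2 farthest above, and none was past the test. Treated libraries alone admitted Col7a1 to the test and control libraries alone admitted Col6a5, so their points are a description only.

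Collagen chains need enzymes and chaperones to fold, and of 20 tested genes for folding and modification 0 moved with dexamethasone, while 3 rose and 4 fell with LiCl. The shares of all tested genes to read these and the next lists against are 5.45% and 5.49% (rose and fell) for dexamethasone, 4.71% and 5.9% for LiCl, 3.82% and 4.78% for LiCl added to dexamethasone, 3.79% and 3.09% for dexamethasone added to LiCl, and 10.8% and 11.8% for the combination. When LiCl was added to dexamethasone 2 rose and 1 fell, when dexamethasone was added to LiCl 0 moved, and with the combination 4 rose and 4 fell. Leprel1, a prolyl 3-hydroxylase, rose with LiCl (1.08 ± 0.11 SE, adjusted p = 1.97e-05) and when LiCl was added to dexamethasone (1.22 ± 0.11 SE, adjusted p = 1.2e-05). P4ha3, a prolyl 4-hydroxylase subunit, fell in the same comparisons (-0.85 ± 0.09 SE, adjusted p = 1.77e-05, and -0.66 ± 0.09 SE, adjusted p = 0.000222). Plod2, the lysyl hydroxylase of the telopeptides, rose with LiCl (0.49 ± 0.12 SE, adjusted p = 0.0149).

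Of 11 tested genes for processing and cross-linking, 1 rose and 4 fell with dexamethasone, 1 rose and 4 fell with LiCl, 1 rose and 1 fell when LiCl was added to dexamethasone, 2 rose and 2 fell when dexamethasone was added to LiCl, and 1 rose and 4 fell with the combination. Tll1, a procollagen C-proteinase, fell with dexamethasone (-0.78 ± 0.14 SE, adjusted p = 0.00188) and with LiCl (-0.57 ± 0.14 SE, adjusted p = 0.0139). Adamts3, a procollagen N-proteinase, fell with dexamethasone (-0.61 ± 0.11 SE, adjusted p = 0.00119), where Loxl3, a lysyl oxidase, rose (0.98 ± 0.11 SE, adjusted p = 2.72e-05). Lox, the main cross-linking enzyme of collagen I, fell with LiCl (-0.64 ± 0.10 SE, adjusted p = 0.00129).

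Of 8 tested collagen receptors, 1 rose and 2 fell with dexamethasone, 0 moved with LiCl, 1 fell when LiCl was added to dexamethasone, 1 rose and 2 fell when dexamethasone was added to LiCl, and 2 rose and 2 fell with the combination. Itga10, the integrin subunit of chondrocytes, rose with dexamethasone (0.74 ± 0.13 SE, adjusted p = 0.00106), while Itga11, the subunit of fibroblasts, fell (-0.61 ± 0.14 SE, adjusted p = 0.00941). Of 13 tested partners in the basement membrane, 1 rose and 1 fell with each drug and when LiCl was added to dexamethasone, 2 rose and 0 fell when dexamethasone was added to LiCl, and 3 rose and 3 fell with the combination. Lama2, the laminin chain of muscle and nerve, rose with dexamethasone (0.57 ± 0.12 SE, adjusted p = 0.00429), and Lamc3 rose with LiCl (0.90 ± 0.21 SE, adjusted p = 0.0145) where Lama3, the laminin chain of epithelia, fell (-0.62 ± 0.17 SE, adjusted p = 0.0288). The medians of these 4 lists lay between -0.30 and 0.18 on the log2 scale in the 5 comparisons.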

How the data were processed

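The deposited files hold raw counts per gene symbol, which per the labels and the study's methods the authors made from strand-specific mRNA libraries with Subread alignment, Picard duplicate removal and HTSeq counting, merging technical replicates. The submitters' processing notes name the human builds hg19 and GRCh37 for these rat libraries, so no coordinates of the counts' build are given. Libraries held 9055581 to 21953446 counts without molecular identifiers, and SEs and p-values reflect the spread between the pools.

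The table of the whole series equalled the sample files (0 values differed). Genes with 60 or more counts in at least 2 libraries (12602) were fitted with edgeR 4.0.16 in R 4.3.3: quasi-likelihood F-test, trimmed mean of M-values scaling, condition only, all 12 libraries, Benjamini-Hochberg adjustment, threshold 0.05, as in the study's filter and with its fold limits of 2 and 0.5 as a further count. SEs are the log2 fold change over the root of F. The code was tested on simulated data. DESeq2 1.42.0, other scaling, filters, a replicate block, fits of only the groups compared, thinning and leaving out each library were alternatives.

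The labels do not tie replicate numbers to rats. Deviations from group means of same-numbered libraries correlated at 0.13 or more in each pair of conditions other than control and dexamethasone (0.027 to 0.17), and the replicate block is given in the report where it changed a call.

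The genes, their groups and the lists were chosen with earlier results of these data known. Values in every library are given for genes past the test and the fold limit in at least 1 comparison and for Col1a1, Col1a2, Col3a1, Col4a1, Col4a2 and Col12a1; Col4a3, Col4a5, Col4a6 and Col17a1 were added after their values were seen. Promoter windows are from RefSeq (GRCr8). The labels give no batch and do not tie libraries to the study's consecutive experiments. Pcolce2 and Hspg2 were not analysed here.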

Additional observations from a re-analysis of the deposited data

How the results depend on the processing

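Of the 80 collagen calls in the 5 pairwise comparisons, 58 were kept in every alternative in which the gene could be tested and 22 were lost in at least 1, and 0 values reversed. These totals include the differences of Col6a5 and Col7a1 from control, which are given in the report as a description only. Leaving out each library in turn gave 10 to 14 collagens past the test for dexamethasone, 11 to 19 for LiCl, 8 to 15 for LiCl added to dexamethasone, 11 to 13 for dexamethasone added to LiCl, 19 to 24 for the combination and 0 to 0 for the interaction. The other alternatives gave 11 to 18, 16 to 19, 12 to 16, 12 to 15, 18 to 26 and 0 to 1. The calls over all genes changed as well. For LiCl added to dexamethasone they were 1084 with every library, 587 without Dexamethasone replicate 3 and 1454 without Control replicate 2. The interaction count of 1 came with no count filter (Col6a3), and the cause was not tested. The fit of only the groups compared could not be fitted for the interaction.

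The replicate block gave 16, 19, 16, 14, 25 and 0 collagens in the same order, lost 0 calls and gained 10. For dexamethasone against control, where same-numbered libraries correlated least (0.027 to 0.17), the gains were Col1a1 (adjusted p = 0.0395) and Col22a1 (adjusted p = 6.82e-05). It changed no call beyond those given here and in the report. With relative log expression scaling in place of the trimmed mean, the median log2 fold change over all genes shifted by 0.0022 or less. Depth limits Col4a3, Col4a4, Col6a4, Col19a1 and Col23a1, which were below the count limit. It also limits Col28a1, which was not tested after thinning, and Col6a5, which was not tested after thinning or without Control replicate 1 or 3.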
